A study of Mus musculus with 6 samples.

Results

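Fibro-adipogenic progenitors (FAPs) that carried the secreted peptidase inhibitor gene *Pi16* were examined in single-cell RNA sequencing data from the tibialis anterior muscle (TAM) of control and hypothyroid mice, before and after injury. Of 11207 cells analysed, 1502 were members. A member had at least 1 UMI (unique molecular identifier, 1 counted mRNA molecule) of each of *Pdgfra*, *Dcn* and *Pi16* and none of the leukocyte gene *Ptprc*. It had fewer than 2 of 6 proliferation genes (*Mki67*, *Top2a*, *Cdk1*, *Birc5*, *Cenpf*, *Ccna2*) and fewer than 2 of 4 injury matrix genes (*Cthrc1*, *Tnc*, *Lrrc15*, *Ltbp2*) above 0. The cells were thus chosen by the measured values of these 14 genes, which are not results. *Pdgfra*- and *Dcn*-positive, *Ptprc*-negative cells, called FAP-gated cells below, numbered 3204. The comparison cells, 891 in all, met every condition for members except that they had no *Pi16* UMI, and are called *Pi16*-zero cells.

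The mice were male, 3 to 5 months old, and on a B6;129 background, and carried the Gt(ROSA)26Sor reporter allele tm1(Fucci2aR)Jkn, which reports the cell cycle. Per the study's methods, the animals used for sequencing lacked Cre, so the reporter was not switched on. Hypothyroid mice ate iodine-deficient food with 0.15% propylthiouracil, which blocks thyroid hormone synthesis, and control mice ate a matched diet, in both cases for 3 weeks before cardiotoxin was injected into the right TAM. The experimental diet went on after the injury, per the study's methods. Muscle was taken uninjured (day 0), at 5 days post injury (dpi) and at 14 dpi, digested with enzymes, cleared of red blood cells and dead cells, and sequenced with 10x 3′ chemistry. Each of the 6 conditions was 1 library made from 3 pooled mice, so a difference between any pair of conditions had no replicate and was not tested, and each interval below (95%) covers counting error only. The diets were tested once, over the 3 days together. Fewer molecules per cell and fewer cells with a transcript cannot be told apart in the summed values.

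The deposited tables needed care before any comparison. Each table held a first block of cells in alphabetical barcode order, and in 5 of the 6 tables a later block of cells whose condition could not be established. Over all tables there were 20269 columns, and 1680 cells stood in more than 1 table with the same barcode, UMI total and gene total. No such cell was shared between first blocks, so the 11207 cells of the first blocks were used and the 9062 later columns were kept only as an alternative. The first blocks held 1152, 2428 and 3294 cells in the control tables and 528, 2155 and 1650 in the hypothyroid tables (uninjured, 5 and 14 dpi). For every condition the study gives a larger number of cells than the first block holds. Whether a first block belongs to the label of its table could not be checked. The libraries also fell into separate sets by a few transcripts over all cells. *Gstp1* stood at 155, 201 and 214 CPM (UMIs of a gene scaled to a common total) over all cells of the control uninjured, hypothyroid uninjured and hypothyroid 5 dpi libraries, and at 4.79, 20.2 and 18.2 CPM in the control 5 dpi, control 14 dpi and hypothyroid 14 dpi libraries. *Rps27rt* showed the reverse order, with 2.02, 1.31 and 7.79 CPM against 67.8, 101 and 123 CPM. Comparisons of diets within uninjured muscle or within 14 dpi, and of hypothyroid 5 dpi with hypothyroid uninjured muscle, stayed inside a set. The diet comparison at 5 dpi and the other comparisons of days crossed the sets, and the part of this split in their results was not tested.

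FAPs are the PDGFRα-positive fibroblasts of skeletal muscle. They lay down connective tissue, send signals to muscle stem cells after damage, and can become fibrogenic or adipogenic. Fibroblasts that express *Pi16* and *Dpp4* are known from many tissues as a progenitor-like state that lies in the connective tissue sheaths and around vessels, whereas FAPs with *Smoc2*, *Col15a1* or *Cxcl14* are known as a more interstitial state close to the fibres. Thyroid hormone acts on such cells through nuclear receptors, chiefly those encoded by *Thra* and *Thrb*.

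*Pi16*-positive members were a large part of the FAP-gated cells in uninjured and 14 dpi muscle and a small part at 5 dpi. In control muscle they numbered 225 of 505 FAP-gated cells when uninjured, 46 of 259 at 5 dpi and 672 of 1075 at 14 dpi. These counts were 44.6% (Clopper-Pearson interval 40.2 to 49.0), 17.8% (13.3 to 23.0) and 62.5% (59.5 to 65.4). In hypothyroid muscle they numbered 91 of 176, 65 of 558 and 403 of 631, or 51.7% (44.1 to 59.3), 11.6% (9.11 to 14.6) and 63.9% (59.98 to 67.6). The share at 5 dpi thus lay below both other days in both diets. With all columns of the tables kept, it stayed below in hypothyroid muscle (20.6%), and in control muscle it was 50.2% beside 53.5% and 58.4%. As a share of all cells, members were 19.5%, 1.89% and 20.4% in control and 17.2%, 3.02% and 24.4% in hypothyroid muscle.

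The low share at 5 dpi came with the exclusion of proliferating and matrix-producing cells that the definition makes. At 5 dpi, 65 of 111 *Pi16*-positive FAP-gated cells in control muscle (58.6%) and 158 of 223 in hypothyroid muscle (70.9%) were left out for those genes, against 1 of 226 and 0 of 91 in uninjured muscle and 50 of 722 and 59 of 462 at 14 dpi. Among FAP-gated cells that passed both exclusions, members were 44.7%, 65.7% and 67.4% in control and 51.7%, 61.9% and 74.4% in hypothyroid muscle, so that by this denominator the 5 dpi share lay between the other days.

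Between diets, the share of FAP-gated cells had a hypothyroid to control ratio of 1.16 in uninjured muscle (interval 0.976 to 1.38), 0.656 at 5 dpi (0.463 to 0.929) and 1.02 at 14 dpi (0.948 to 1.10). Over all cells the ratio at 5 dpi turned to 1.59 (1.10 to 2.31), and among the cells that passed the exclusions it was 0.942 (0.751 to 1.18). No single direction for the 5 dpi share therefore held over the denominators. At 14 dpi the ratio was 1.20 (1.07 to 1.33) over all cells. The shares were also taken at equal depth. Thinning applied the whole rule anew, and in 1 draw at 2000 UMIs the FAP-gated cells of control uninjured muscle went from 505 to 282. Depth and this change of cells cannot be told apart in the thinned shares. With every cell thinned to 2000 UMIs and shallower cells left out, the mean share of FAP-gated cells over 10 draws was 28.7%, 22.1% and 54.4% in control and 38.1%, 16.02% and 50.0% in hypothyroid muscle.

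**Figure D1:**
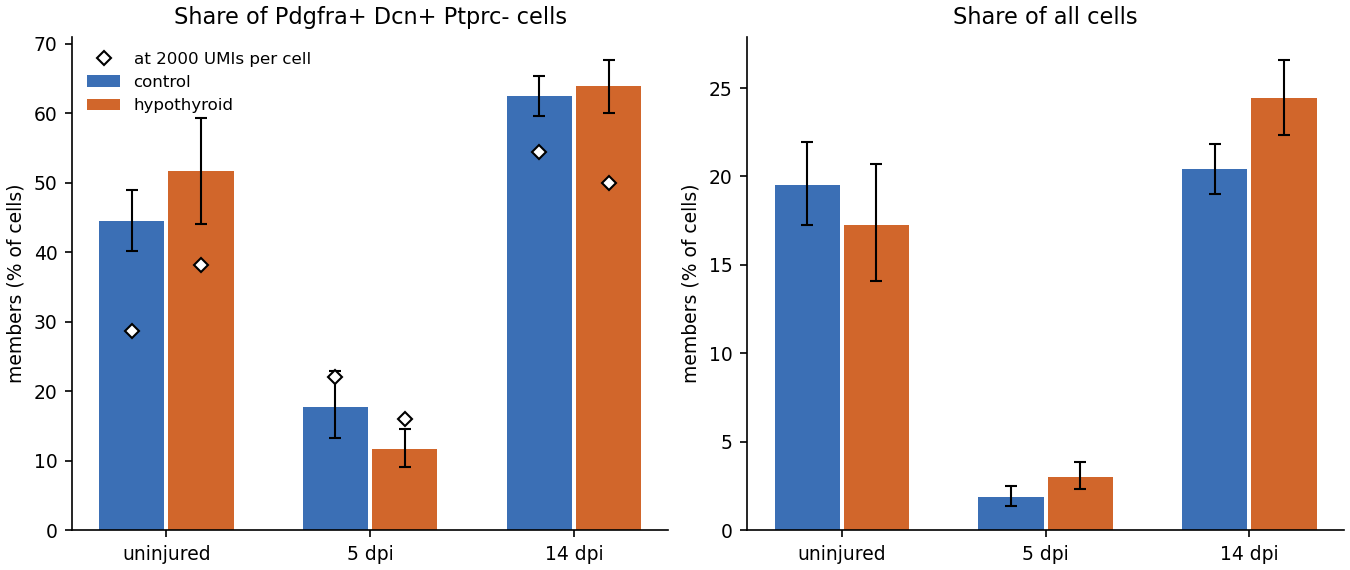
Share of members in each library. Left, percent of FAP-gated cells (bars with Clopper-Pearson 95% intervals) and the same after thinning to 2000 UMIs (diamonds), and right, percent of all cells, by day and diet, 1 library each. The 5 dpi bars, 17.8% in control and 11.6% in hypothyroid muscle, stand below the bars of the other days.

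Members carried a median of 4 to 12.5 *Pi16* UMIs per cell, with a highest value of 115, and median total depths of 6068 to 10162 UMIs. *Pi16* UMIs also occurred in cells that should lack the gene. They were found in 1.61%, 1.35% and 5.42% of immune cells of the control libraries and in 0 of 32 (3 of 32 cells, the limit set on a count of 0, is 9.38%), 2.09% and 3.17% of those of the hypothyroid libraries, at median depths of 2855 to 5545 UMIs. In endothelial cells the shares were 0 of 60 (limit 5%), 1.69% and 8.71% in control and 0 of 13 (limit 23.1%), 3.23% and 2.17% in hypothyroid muscle. All lay below the 44.7% to 74.4% of FAP-gated cells that passed the exclusions, and 44, 4, 115, 16, 10 and 66 members of the 6 libraries rested on 1 *Pi16* UMI.

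The label of the population was checked against its other named markers. *Igfbp6*, an IGF-binding protein, and *Mfap5*, a microfibril protein, were higher in members than in *Pi16*-zero cells of the same library in 6 of 6 libraries, by 1.31 (SE 0.19, adjusted p = 0.015, limma) and 1.40 (SE 0.14, adjusted p = 0.0051, limma) on the log2(CPM + 1) scale. *Clec3b*, which encodes tetranectin, ran from 1023 to 2605 CPM in members and was also higher in 6 of 6 libraries, by 0.81 (SE 0.18), but missed the threshold (adjusted p = 0.062, limma). *Dpep1*, a membrane dipeptidase, did not mark the members. It was higher in 3 libraries and lower in 3, with a mean difference of -0.065 (SE 0.15, adjusted p = 0.85, limma), and stood at 270, 92.4 and 187 CPM in control members and 222, 71.0 and 110 CPM in hypothyroid members. The cells are accordingly called by their rule, *Pi16*-positive FAPs, below.

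Around the threshold of 1 *Pi16* UMI, the levels of other genes changed over several steps of *Pi16*, least regularly at 5 dpi, where 1 class held 4 cells. In control uninjured muscle, *Sema3c*, a secreted guidance molecule, stood at 124 CPM in cells with no *Pi16* UMI, 263 CPM in cells with 1, 431 CPM with 2 to 4, 762 CPM with 5 to 9 and 1046 CPM with 10 or more. *Smoc2*, a matricellular protein, ran the other way in the same cells, through 2915, 925, 935, 451 and 302 CPM. *Cxcl14*, a chemokine, fell from 2811 CPM without *Pi16* to 536 CPM with 1 UMI and 35.3 CPM with 10 or more. *Dpep1* showed no such order, with 308, 259, 200, 321 and 299 CPM.

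At 14 dpi, how close the cells just inside the threshold were to those just outside it differed by gene. *Smoc2* stood at 1091 CPM in control cells with 1 *Pi16* UMI against 1173 CPM in those with none, and at 751 against 749.7 CPM in hypothyroid cells. In uninjured hypothyroid muscle the same step was from 2934 to 1116.5 CPM. In hypothyroid cells at 14 dpi the step from none to 1 UMI took *Sema3c* from 85.0 to 219 CPM, *Cd55* from 52.1 to 106 CPM and *Cxcl14* from 690 to 327 CPM. In control cells at 14 dpi it took *Apod*, a lipid-binding lipocalin, from 2585 to 1249 CPM. *Dpp4*, the surface peptidase that marks progenitor-like fibroblasts, stood at 24.7 CPM with 1 UMI against 15.6 CPM with none in control 14 dpi cells, and reached 147 CPM with 10 or more. Median depth climbed along the same axis, from 4464.5 UMIs in cells without *Pi16* to 8684 UMIs in cells with 10 or more in control uninjured muscle, and its part in the gradient was not tested.

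**Figure D2:**
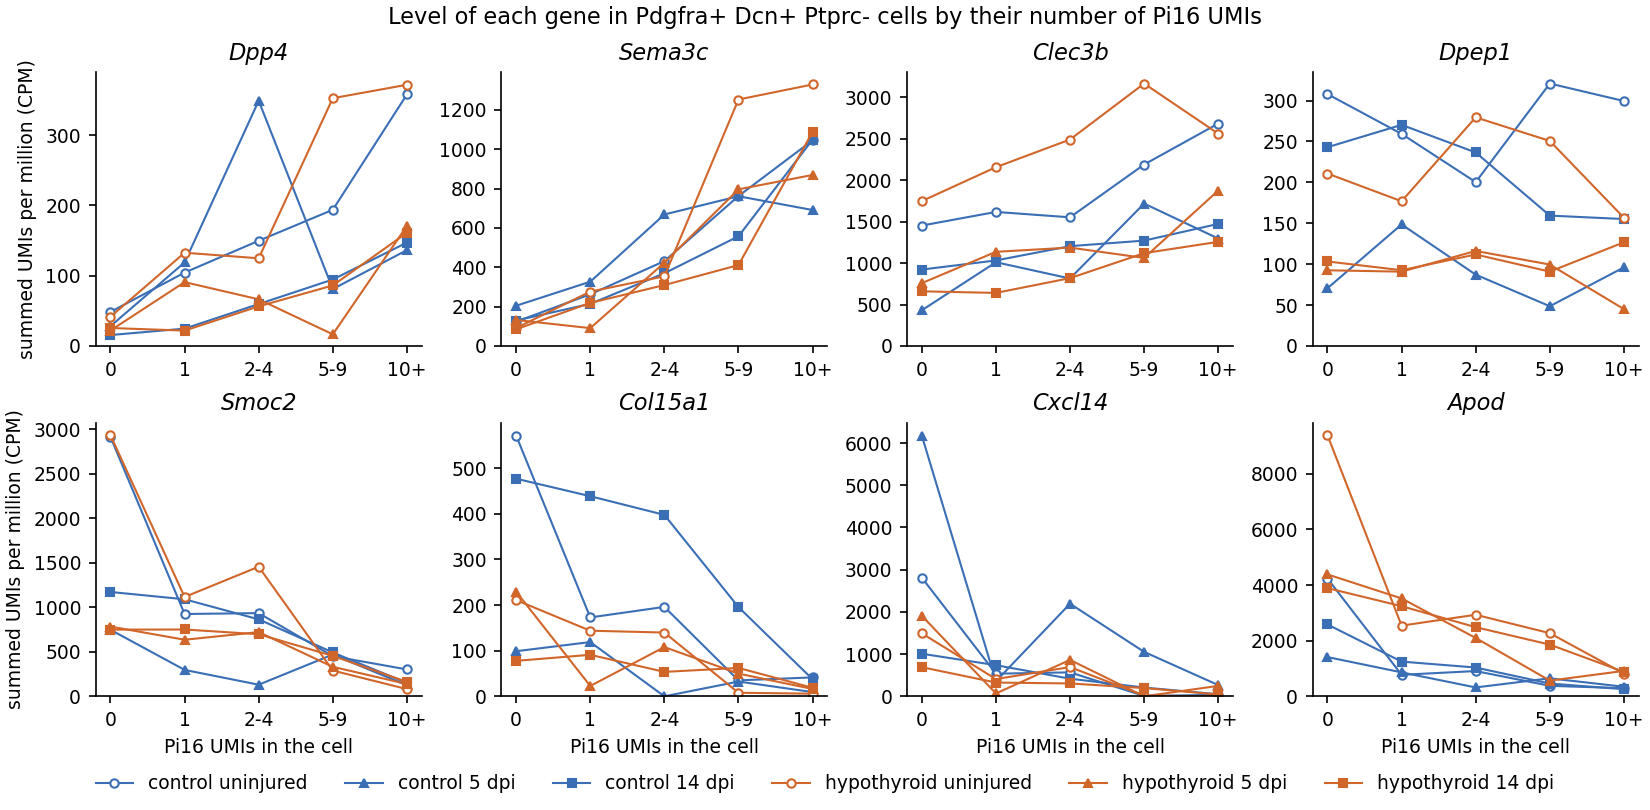
Levels of 8 genes (CPM) by the number of *Pi16* UMIs in a cell, summed over the cells of each class, with 1 line for each of the 6 libraries. In each library *Dpp4* and *Sema3c* are higher at 10 or more *Pi16* UMIs than at 0, *Smoc2*, *Col15a1*, *Cxcl14* and *Apod* are lower, and *Dpep1* has no common direction.

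What the members share beyond the genes that chose them was tested across the 6 libraries, with members and *Pi16*-zero cells of a library as a pair. Of 8924 genes tested, 129 were higher (1.45%) and 125 lower (1.4%) in members at an adjusted p under 0.05 (limma). Members were deeper than *Pi16*-zero cells in every library, with a median depth of 7569 against 4464.5 UMIs in control uninjured muscle for instance, and when all cells were thinned to 2000 UMIs, 8 genes were higher and 0 lower (231 and 194 at an unadjusted p under 0.05, limma), with 4 of 28 progenitor-like and 0 of 24 interstitial genes among them. The rule was applied anew to the thinned cells, so a member that lost its *Pi16* UMIs could become a *Pi16*-zero cell. Members went from 225 to 75 in control uninjured muscle, and *Pi16*-zero cells from 40 to 55 in hypothyroid 5 dpi muscle. Depth and this change of cells cannot be told apart in the thinned counts. At full depth, the counts were 56 and 28 without the control uninjured library, 70 and 45 without control 14 dpi, 78 and 60 without hypothyroid uninjured and 78 and 76 without hypothyroid 14 dpi. Each gene called higher or lower below moved that way in 6 of 6 libraries unless stated.

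Of 35 genes of the progenitor-like state that were tested, 21 were higher in members and 0 lower, with a median difference of 1.41 against 0.02 over all genes. This list, like the other lists and the members, was chosen with earlier results of these data known. *Gap43*, a growth cone protein, stood at 55.9, 26.7 and 27.5 CPM in control members and 35.5, 41.1 and 33.3 CPM in hypothyroid members, whereas no *Pi16*-zero value exceeded 1.49 CPM, a difference of 4.60 (SE 0.25, adjusted p = 0.0017, limma). In the 24 *Pi16*-zero cells of control 5 dpi muscle 1 UMI was 7.06 CPM, so *Gap43* had 0 UMIs there. The size of a log2 difference from a pool with 0 UMIs depends on the 1 CPM added to each value. *Sema3c* ran from 617 to 821 CPM in members and from 85.0 to 205 CPM in *Pi16*-zero cells (difference 2.50, SE 0.20). *Dpp4* was higher by 2.37 (SE 0.15, adjusted p = 0.0021, limma) and *Cd55*, a complement-restraining surface protein, by 2.15 (SE 0.16). *Wnt2*, a secreted Wnt ligand, stood at 59.2 to 108 CPM in members and at 0 to 10.97 CPM in *Pi16*-zero cells (difference 4.46, SE 0.52). *Uchl1*, a deubiquitinase, *Anxa3*, an annexin, *Cd248*, a surface sialomucin, and *Ackr3*, a scavenging chemokine receptor, were among the others that were higher.

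The largest differences by the naming rule (the 10 largest in each direction among called genes with a mean of at least 50 CPM) included *Dmkn*, *Krtdap* and *Sbsn*, which encode secreted proteins best known from keratinocytes. *Sbsn* stood at 220, 111 and 97.9 CPM in control members and at 142, 265 and 71.8 CPM in hypothyroid members, against 2.74 to 35.2 CPM in *Pi16*-zero cells, a difference of 3.95 (SE 0.29, adjusted p = 0.0036, limma). *Dmkn* was higher by 5.12 (SE 0.58) and *Krtdap* by 4.73 (SE 0.46), and *Dmkn* was detected in 6.6% to 23.9% of members. The 3 genes are neighbours on mouse chromosome 7 (mm39, 30450896 to 30490523, a span of 39.6 kb), and no other gene of the files lies in that span. *Cmah*, which makes the sialic acid Neu5Gc, was higher by 4.53 (SE 0.55), *Pdgfc*, a growth factor, by 3.15 (SE 0.39), *Ptgis*, the prostacyclin synthase, by 3.08 (SE 0.60), *Adgrg2*, an adhesion receptor, by 2.80 (SE 0.52), *Car8* by 2.65 (SE 0.33) and *Plet1* by 2.64 (SE 0.26). Several of these differences include *Pi16*-zero pools at 0 CPM, where their size depends on the 1 CPM added to each value. *Ptgis* (adjusted p = 0.042, limma) kept its call in 9 of 17 alternative settings and *Adgrg2* in 10 of 16. *Cmah* stood at 152 against 0 CPM in control 5 dpi muscle, a difference of 7.26. *Cmah* and *Dmkn* were at 0 CPM in *Pi16*-zero cells of each hypothyroid library. *Krtdap* was at 0 CPM in those of control 5 dpi, hypothyroid uninjured and hypothyroid 5 dpi muscle.

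Of 26 genes of the interstitial FAP state, 10 were lower in members, 0 higher and 16 without a call, with a median difference of -1.23, and after thinning to 2000 UMIs 0 of 24 were called. *Cxcl14* stood at 255, 645 and 242 CPM in control members and 301, 344 and 185 CPM in hypothyroid members, against 690 to 6176 CPM in *Pi16*-zero cells, and was lower by a log2 difference of -2.57 (SE 0.24, adjusted p = 0.0046, limma). *Smoc2* (-1.59, SE 0.23), *Col15a1* (-1.80, SE 0.27) and *Hsd11b1*, which regenerates active glucocorticoid (-1.77, SE 0.27), were lower too. *Apod* had a difference of -1.96 (SE 0.24, adjusted p = 0.010, limma). The other genes named by the rule were *Ptn* (-2.50), a heparin-binding growth factor, *Spon1* (-2.32), *Apoe* (-2.15), the lipoprotein gene, *Cpe* (-2.11), *Tmem176b* (-2.06), *Gpm6b* (-1.94), *Cp* (-1.93), which encodes ceruloplasmin, and the cadherin *Cdh11* (-1.91). *Gpm6b* (adjusted p = 0.047, limma) kept its call in 8 of 17 alternative settings. *Lum* (-0.73, adjusted p = 0.17, limma) did not pass and was higher in 1 library.

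**Figure D3:**
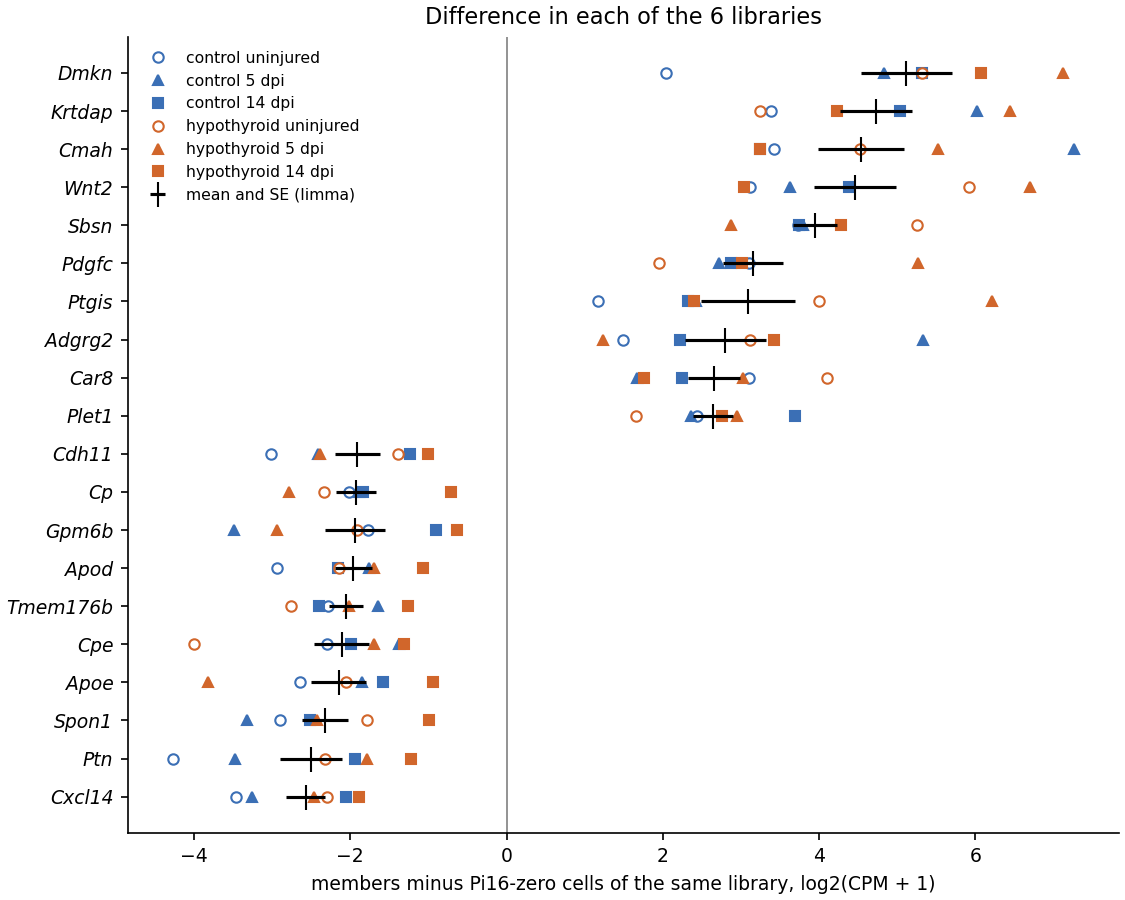
Difference between members and *Pi16*-zero cells of the same library, log2(CPM + 1), for the 10 genes named in each direction; points are the 6 libraries, and the mean is drawn with its standard error. *Dmkn* lies at 5.12 and *Cxcl14* at -2.57, and the points of each gene stay on one side of 0.

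Matrix and signalling genes divided by member of the family rather than by family. Among 20 elastic fibre and microfibril genes, *Efemp1* (1.62), *Fbn1* (1.53), *Emilin2* (1.41) and *Mfap5* were higher and *Mgp* (-1.81) and *Emilin1* (-1.20) lower. Among 16 collagens, *Col14a1* was higher (1.04) and *Col15a1*, *Col4a1* (-1.35), *Col4a2* (-1.27) and *Col6a3* (-1.13) lower, of which *Col4a1* and *Col4a2* encode the basement membrane network. The main fibrillar collagens showed no call, *Col1a1* with -0.11 (adjusted p = 0.78, limma) and *Col3a1* with 0.06 (adjusted p = 0.90, limma), each higher in 3 of 6 libraries. Of 8 IGF-axis genes, *Igfbp5* (2.004) and *Igfbp6* were higher and *Igfbp3* (-1.40) and *Igfbp7* (-1.20) lower. Of 20 Wnt and BMP genes, *Wnt2* and *Fstl1* (0.73) were higher, and *Bmp5* (-1.87), *Sfrp1* (-1.58), a Wnt antagonist, and *Wnt5a* (-1.13) lower. *Fn1*, fibronectin, was higher by 1.32 and was the 1 call of 22 injury fibroblast genes, and *Ugdh* (1.01) and *Tnfaip6* (0.83), which supply and crosslink hyaluronan, were the calls of 7 hyaluronan genes.

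Among stress and lineage genes the calls differed by list. Of 20 immediate-early genes, which respond within minutes to handling or signals, 5 were lower (*Fosb* -1.20, *Zfp36* -1.18, *Jun* -1.08, *Klf2* -1.03, *Junb* -0.80) and 0 higher, beside 1.4% lower and 1.45% higher over all genes. Of 12 adipogenic genes *Lpl* (-1.03), lipoprotein lipase, and *Cebpd* (-0.87) were lower. The only chemokine call of 20 was *Cxcl14* and the only complement call of 10 was *Cd55*. *Pcolce2* and *Timp2* (0.90) were higher among 17 proteases and inhibitors, *Ifi27l2a* (1.19) was higher and *Irf1* (-1.40) lower among 16 interferon genes, and *Txnip* (-1.12) was lower among 10 antioxidant genes. None of the 10 small proteoglycans, the 11 genes of thyroid hormone transport and receptors or the 11 thyroid-responsive genes were called. With 1.45% of all genes called higher and 1.4% lower, lists this short cannot be set apart from that share. The markers of other cell types had no call either. Yet each of their lists with tested genes had a negative median difference, from -0.30 (4 myeloid genes) to -1.45 (4 tenocyte genes). The part of other cells in the *Pi16*-zero pools was not tested. *Thra* stood at 65.4 to 88.0 CPM in members, with a difference of 0.05 (adjusted p = 0.91, limma), and *Dio2*, which activates thyroid hormone, at -1.03 (adjusted p = 0.057, limma) with 6 of 6 libraries lower.

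After injury, the members of both diets held more transcripts of fibrillar collagen and of wound matrix genes. *Col1a1* stood at 1045, 9609 and 4572 CPM in control members on day 0, 5 and 14, and at 384, 6201.5 and 3882 CPM in hypothyroid members. The ratio to uninjured members was 9.19 (interval 8.70 to 9.72) at 5 dpi and 4.37 (4.17 to 4.59) at 14 dpi in control, and 16.1 (14.1 to 18.5) and 10.1 (8.86 to 11.6) in hypothyroid muscle. The uninjured level was thus lowest and the 5 dpi level highest in each diet. *Col3a1* followed the same order, through 1386, 18111 and 10542 CPM in control and 868, 11488 and 7550.3 CPM in hypothyroid members. *Postn*, periostin, was near 0 in uninjured members, with 3 UMIs in 2 control cells and 14 UMIs in 2 hypothyroid cells, and reached 1959.6 and 2251 CPM at 5 dpi and 518 and 1485 CPM at 14 dpi. *Timp1*, a protease inhibitor, stood at 11.2, 544 and 248 CPM in control and 16.9, 714 and 344 CPM in hypothyroid members. *Lox*, which crosslinks collagen, rose to 754 and 829 CPM at 5 dpi from 120 and 98.2 CPM.

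A gene was counted when its level differed at least 2-fold and its higher pool held at least 50 UMIs. Between 5 dpi and uninjured members, 320 of 4533 genes were higher (7.06%) and 545 lower (12%) in control muscle, and 267 of 2178 higher (12.3%) and 378 lower (17.4%) in hypothyroid muscle. With median-of-ratios scaling in place of CPM, these splits moved to 411 higher and 427 lower, and to 402 higher and 227 lower, since the median log2 ratio of all genes was -0.14 and -0.26. Between 14 dpi and uninjured members, 533 of 7355 were higher (7.25%) and 205 lower (2.79%) in control, and 837 of 6523 higher (12.8%) and 554 lower (8.49%) in hypothyroid muscle. The comparisons of 5 dpi and of 14 dpi with uninjured muscle share their uninjured library. Of 16 collagens tested, 7 were higher at 5 dpi and 10 at 14 dpi in control muscle, and 9 of 14 and 13 of 16 in hypothyroid muscle. The 1 collagen called lower was *Col15a1*, at 5 dpi in control muscle. Injury fibroblast genes were higher for 9 of 16 and 14 of 21 in control, and 7 of 16 and 10 of 20 in hypothyroid muscle. Lower calls of that list were 1 (*Tgfbi*) and 0 in control, and 2 (*Acta2* and *Tgfbi*) and 3 (*Acta2*, *Ccn2* and *Ccn1*) in hypothyroid muscle.

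The libraries of the diets share no cells, and genes past 2-fold in the same direction in both were counted. At 5 dpi, 109 genes were higher in both diets (5.05% of the 2159 tested in both, 57.4% of the control list and 43.6% of the hypothyroid list) and 141 were lower in both (6.53%). At 14 dpi, 262 were higher in both (4.08% of 6425) and 93 lower (1.45%). Both 14 dpi comparisons cross the library sets described above in the same direction, whereas at 5 dpi only the control comparison does. *Gstp1*, which split the sets, was among the genes lower in both diets at 14 dpi (ratios 0.134 in control and 0.0860 in hypothyroid muscle). The part of this split in the shared genes was not tested. Several genes of uninjured FAPs were lower after injury. *Hsd11b1* stood at 108, 10.3 and 15.2 CPM in control and 191, 18.7 and 21.9 CPM in hypothyroid members. *C7*, a complement protein, stood at 126, 6.16 and 20.9 CPM and at 93.1, 9.34 and 8.20 CPM, and *Gstm1*, a glutathione transferase, at 618, 65.7 and 224 CPM and 679, 110 and 239 CPM. *Inmt*, a methyltransferase, stood at 63.0, 6.16 and 19.7 CPM in control and 235, 3.74 and 17.4 CPM in hypothyroid members. *Creb5*, a transcription factor of the progenitor-like list, stood at 733, 294 and 215 CPM and at 650, 196 and 159 CPM. *Dpp4* stood at 230, 158 and 104 CPM in control and 247, 123 and 97.7 CPM in hypothyroid members, and its ratio of 0.687 at control 5 dpi did not reach 2-fold.

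**Figure D4:**
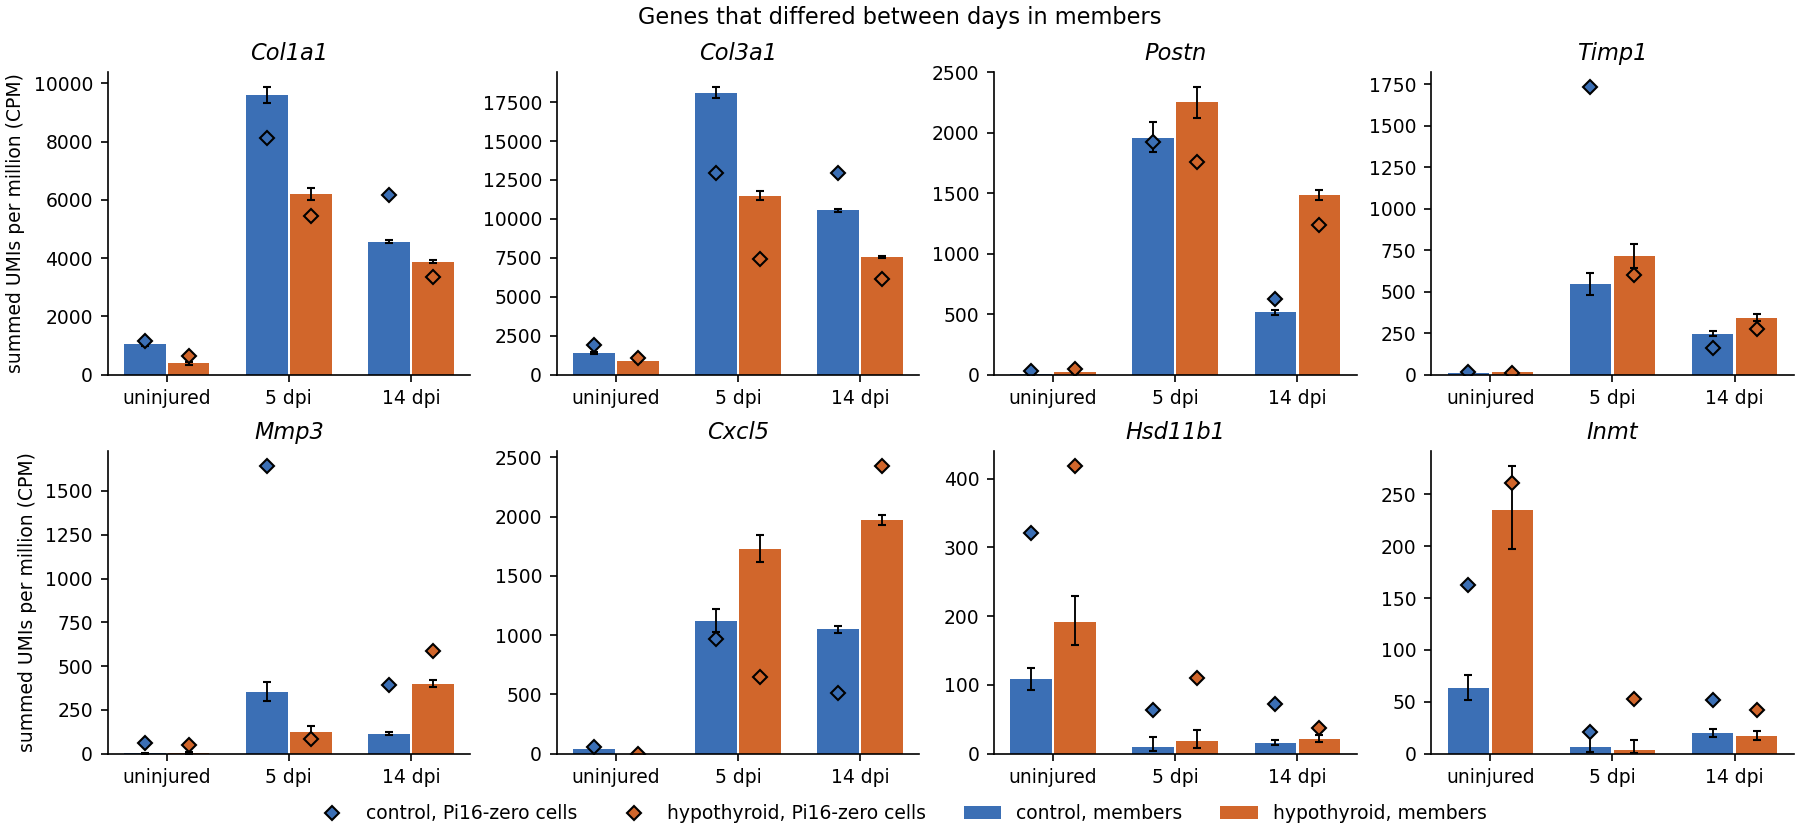
Levels in CPM of 8 genes by day and diet. Bars are members with Poisson 95% intervals, diamonds are *Pi16*-zero cells of the same library. *Col1a1*, *Col3a1*, *Postn* and *Timp1* are higher at 5 dpi than in uninjured members of the same diet, and *Hsd11b1* and *Inmt* are lower.

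Chemokine and interferon genes also moved after injury. *Cxcl5*, a neutrophil attractant, was absent from 91 uninjured hypothyroid members and stood at 38.3 CPM in control ones, where 89.2% of its UMIs came from 1 of 3 cells. It reached 1119 and 1729.7 CPM at 5 dpi and 1049.9 and 1973 CPM at 14 dpi. With 3 counts set for the uninjured hypothyroid pool the ratios there were 341 and 389, and the lower ends of the exact intervals were 276 and 316. *Cxcl5* was seen in 19.6% and 36.9% of members at 5 dpi and in 25.4% and 37.5% at 14 dpi. *Ccl2*, which attracts monocytes, stood at 10047, 6121 and 9757 CPM in control and 7007, 22704 and 17658 CPM in hypothyroid members. Of the chemokine and cytokine genes tested in control muscle, 3 of 15 were higher and 3 lower (*Tslp*, *Ccl11* and *Il33*) at 5 dpi than when uninjured, and 4 of 18 higher and 2 lower at 14 dpi, beside 7.06% and 12% and 7.25% and 2.79% over all genes. In hypothyroid muscle 7 of 13 were higher and 1 lower at 5 dpi and 10 of 18 higher and 2 lower at 14 dpi, beside 12.3% and 17.4% and 12.8% and 8.49%. Interferon-responsive genes were higher at 5 dpi for 7 of 9 genes in control, with 1 lower (*Gbp2*), and for 6 of 6 in hypothyroid muscle. *Ifit1* stood at 79.5, 382 and 107 CPM in control and 3.39, 465 and 103 CPM in hypothyroid members. Of the progenitor-like genes, 12 of 34 and 5 of 35 were lower at 5 and 14 dpi in control and 8 of 28 and 10 of 32 in hypothyroid muscle, with 2 and 1 higher in control and 2 and 0 higher in hypothyroid muscle. Of the interstitial genes, 9 of 22 were lower and 1 higher at 5 dpi and 4 of 26 lower and 4 higher at 14 dpi in control members. In hypothyroid members 11 of 20 were lower and 0 higher at 5 dpi, and 7 of 23 lower and 2 higher at 14 dpi. Immediate-early genes were lower for 13 of 18 and 10 of 20 in hypothyroid muscle, with 0 and 1 higher, and for 0 of 18 and 1 of 20 in control muscle, with 2 and 2 higher.

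Levels of marker genes of other cell types differed between the libraries as well. Summed over 7 myofibre genes, members held 2686, 452 and 7591 CPM in control and 10070.2, 148 and 1736 CPM in hypothyroid muscle, and immune cells of the same libraries held 3894, 1613 and 16164 CPM and 6434, 269 and 3022 CPM. At 14 dpi in control muscle 6 of 6 tested endothelial genes, 4 of 4 erythroid genes and 6 of 7 myofibre genes were at least 2-fold higher in members than in uninjured muscle. The summed endothelial level was then 325 CPM in members against 12821 CPM in endothelial cells, and the myeloid level 83.9 CPM against 15909 CPM in immune cells. In every library members held at most 2.11 CPM over 7 lymphoid genes. The part of free RNA or of joined cells in the values of members was not tested, and doublets had not been removed.

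The diets differed on all 3 days in few genes. Of 1856 genes tested on each day, 3 were at least 2-fold higher (0.162%) and 5 at least 2-fold lower (0.269%) in hypothyroid members on all 3 days. These comparisons use separate libraries. A fit of diet over the 6 member pools with day as block, added after the values were seen and with 2 residual degrees of freedom, called 0 of 7940 genes (0% in each direction) at an adjusted p under 0.05 (limma), with 488 genes at an unadjusted p under 0.05. The adjusted p was 0.161 for *Apoe*, *Ace* and *Thy1*, 0.218 for *Apod* and *Cmah*, 0.478 for *Thbs1* and *Steap3* and 0.638 for *Mgp* (limma). With a pseudocount of 5 CPM the fit called 6 genes, *Apod* and *Apoe* higher and *Ace*, *Thy1*, *Cmah* and *C1qtnf1* lower, and with a minimum of 500 UMIs it called 4 of 3520, *Apod*, *Apoe*, *Ace* and *Thy1*. Without both uninjured libraries it called 34 genes higher and 77 lower, and without both 5 dpi or both 14 dpi libraries 0. When all columns of the tables were kept, none of these 8 genes passed on all 3 days and *C1qtnf1* alone did, as a lower gene, and after thinning to 2000 UMIs *Apod* and *Apoe* were the genes that passed of 212 tested. *Apod* was higher, with 552, 415 and 579 CPM in control and 2114, 1356 and 1850 CPM in hypothyroid members, and ratios of 3.83 (interval 3.52 to 4.17), 3.27 (2.79 to 3.84) and 3.19 (3.06 to 3.34). How many of all genes separate the diets fully was not counted. *Apod*, picked for differing on all 3 days, had no control value that reached any hypothyroid value. It was also higher in *Pi16*-zero cells of hypothyroid muscle, with 9387 against 4235.5 CPM uninjured, 4384 against 1412 CPM at 5 dpi and 3891 against 2585 CPM at 14 dpi, and was seen in 67.7% to 80.4% of control and 86.2% to 89.0% of hypothyroid members. Immune cells held 8.49 to 39.6 CPM.

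*Ace*, the angiotensin-converting enzyme, was lower in hypothyroid members on all 3 days. It stood at 367, 187 and 318 CPM in control and 91.4, 44.8 and 84.5 CPM in hypothyroid members, with ratios of 0.249 (0.185 to 0.329), 0.240 (0.146 to 0.379) and 0.266 (0.236 to 0.300). It was seen in 76.0%, 67.4% and 72.6% of control and 33.0%, 24.6% and 44.2% of hypothyroid members. *Thy1*, the surface glycoprotein CD90 of many fibroblasts, stood at 203, 255 and 187 CPM against 44.0, 71.0 and 25.4 CPM, with ratios of 0.217 (0.140 to 0.323), 0.279 (0.188 to 0.404) and 0.136 (0.110 to 0.167). In *Pi16*-zero cells *Ace* stood at 47.1 and 32.9 CPM in hypothyroid against 207 and 180 CPM in control muscle when uninjured and at 14 dpi. At 5 dpi its levels there, 22.0 (7.15 to 51.4) and 35.3 (11.5 to 82.4) CPM, rested on 5 UMIs each and could not be told apart. *Thy1* was lower in hypothyroid *Pi16*-zero cells on each day, with 22.2, 70.5 and 10.1 CPM against 76.8, 184 and 104 CPM.

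*Steap3*, a metalloreductase of iron uptake named after its values were seen, stood at 121, 134 and 77.2 CPM in control and 50.8, 26.2 and 29.8 CPM in hypothyroid members, with ratios of 0.419, 0.196 and 0.387. *Cmah*, which also set members apart from *Pi16*-zero cells, stood at 73.6, 152 and 41.9 CPM against 22.0, 44.8 and 8.46 CPM, with ratios of 0.299 (0.155 to 0.530), 0.295 (0.178 to 0.473) and 0.202 (0.136 to 0.292). Each was lower in every hypothyroid library than in each control library except that *Cmah* at hypothyroid 5 dpi exceeded control 14 dpi. Both were picked for differing on all 3 days, and the share of all genes that separate so was not counted.

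The other 3 genes had a large part of their UMIs in single cells in some pools. *Thbs1*, thrombospondin-1, stood at 304, 308 and 722 CPM against 685, 1128 and 1830 CPM, but 70.4% of its UMIs in uninjured hypothyroid members came from 1 cell, and without the highest cell of each pool its ratios were 0.772, 4.37 and 2.61. *Apoe* stood at 57.7, 26.7 and 164 CPM against 279, 125 and 666 CPM, with 65.3% and 51.5% of the uninjured UMIs in 1 cell of each pool, and without the highest cell of each pool its ratios were 7.11, 4.78 and 4.50. Immune cells held 399, 1152.5 and 5611 CPM of *Apoe* in control and 295, 13595 and 14709 CPM in hypothyroid muscle, so that at 5 and 14 dpi it moved the same way outside the members. *Mgp*, a calcification inhibitor, stood at 268, 499 and 1368 CPM against 25.4, 213 and 619 CPM, and its 5 dpi ratio of 0.427 became 0.885 without the highest cell of each pool, while *Pi16*-zero cells at 5 dpi held 1824 CPM in hypothyroid and 1263 CPM in control muscle. Like those of *Apoe*, the ratios of *Apod*, *Ace*, *Cmah*, *Steap3* and *Thy1* without the highest cells stayed past 2-fold on all 3 days, between 2.99 and 4.11 for *Apod* and between 0.130 and 0.423 for the other 4.

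**Figure D5:**
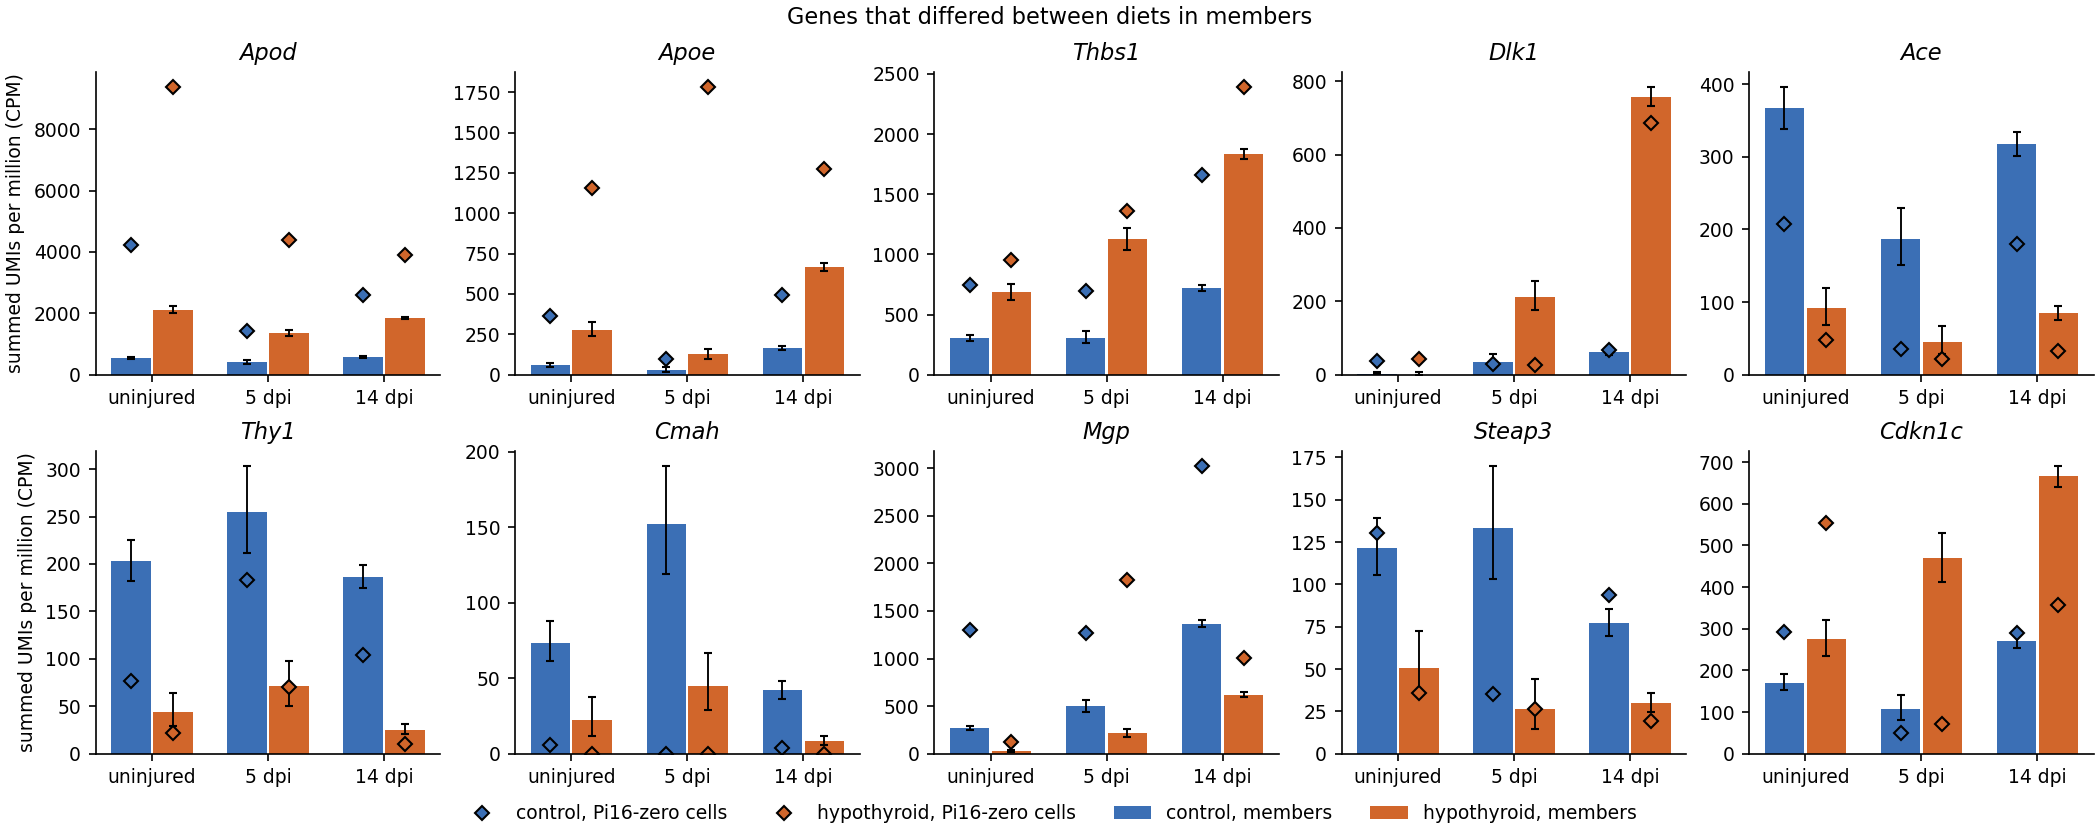
Levels in CPM of 10 genes in members by day and diet (bars, Poisson 95% intervals), with *Pi16*-zero cells of the same library as diamonds. *Apod* is higher and *Ace*, *Thy1*, *Cmah* and *Steap3* are lower in hypothyroid members on each of the 3 days, and *Dlk1* is highest in hypothyroid muscle at 14 dpi, with 758 CPM.

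In uninjured muscle, 81 of 4508 genes were higher (1.8%) and 180 lower (3.99%) in hypothyroid than in control members, with a median log2 ratio of -0.10, and median-of-ratios scaling gave 110 and 139. Of 15 collagens 4 were lower and 0 higher, *Col1a1* with a ratio of 0.368 (0.319 to 0.422), *Col1a2* 0.477, *Col5a1* 0.475 and *Col6a3* 0.482, at a list median of -0.67. Of 8 interferon genes 5 were lower. *Ifit1* had 2 UMIs against 135 (ratio 0.0426, interval 0.00511 to 0.157), though 53.3% of the control UMIs came from 1 cell. *Isg15* stood at 20.3 against 102 CPM and *Ifi27l2a* at 66.0 against 222 CPM. *Prg4*, lubricin, stood at 134 against 607 CPM (0.220, 0.173 to 0.277), and *Msc*, a transcriptional repressor, at 15.2 against 91.8 CPM.

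Of 18 immediate-early genes, 5 were higher and 0 lower in uninjured hypothyroid members. *Fos* stood at 2156 against 835 CPM (ratio 2.58, 2.39 to 2.79), and *Nr4a1* had a ratio of 2.60. *Fos* was also higher in hypothyroid than in control *Pi16*-zero cells, with 3319.5 against 2199.7 CPM. Among interstitial genes *Apod*, *Inmt*, *Mme* and *Penk* were higher, 4 of 22, and 0 lower. Of 7 myofibre genes 5 were higher and 0 lower, with ratios of 4.95 for *Acta1* and 4.47 for *Ckm*, at a list median of 1.84. The muscle genes *Tpm2* (5.92), *Tcap* (5.22) and *Myoz1* (4.86), outside that list, were higher too. *Acta1* was also higher in *Pi16*-zero cells, with 4371 against 1448 CPM. Several of the largest ratios rested on 1 or a few cells. All 157 UMIs of *Cxcl3* came from 1 hypothyroid cell, 63.9% of those of *Nr4a3* from 1 cell, and 103 control UMIs of *Myod1* from 2 cells. *Il1rl1*, the IL-33 receptor, had 0 UMIs against 111 in 9 control cells.

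At 5 dpi, 90 of 1900 genes were higher (4.74%) and 167 lower (8.79%) in hypothyroid members, with a median log2 ratio of -0.16, and median-of-ratios scaling turned the split to 128 higher and 118 lower. This comparison crosses the library sets described above. *Gstp1* (ratio 25.0), *Gm10076* (21.1), *mt-Nd4l* (13.9) and *Rpl35* (6.59) were among the highest ratios and *mt-Nd1* (0.302) and *Neat1* (0.249) were among the lower ones, and each moved the same way in immune cells, *Gm10076* with 2514 against 188 CPM there. Of 14 chemokine and cytokine genes 6 were higher and 1 lower, at a list median of 0.81. *Ccl2* had a ratio of 3.71 (3.56 to 3.86), *Cxcl10* 3.78, *Cxcl2* 3.41, *Il33* 3.26 and *Ccl7* 2.50, and *Lif* was the lower one (0.236). Immediate-early genes were lower for 5 of 17, *Klf2* at 0.266 and *Zfp36* at 0.307. *Cd248* was lower, with 164 against 573 CPM (0.287, 0.223 to 0.366), as were *Scd2* (0.252) and *Tuba1a* (0.295). *Tfpi2* (8.51), *Inhba* (6.19) and *Cxcl3* (4.16) were higher, with 44.7%, 36.4% and 25.7% of hypothyroid UMIs in 1 cell. With all columns of the tables kept, several of these ratios turned, to 1.73 for *Klf2*, 1.21 for *Zfp36*, 1.24 for *Lif*, 1.78 for *Scd2*, 1.06 for *Tuba1a*, 0.928 for *Tfpi2* and 0.955 for *mt-Nd4l*, and that of *Inhba* became 0.155 after thinning to 2000 UMIs. The control pool was 46 cells, and these ratios describe those cells.

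At 14 dpi the pools were the largest, 403 hypothyroid and 672 control members, and 77 of 7447 genes were higher (1.03%) and 305 lower (4.1%), with a median log2 ratio of -0.04. *Dlk1*, an imprinted gene known as an inhibitor of adipogenesis, stood at 758 CPM in hypothyroid members and 60.9 CPM in control ones, a ratio of 12.4 (11.03 to 14.1). It was found in 156 of 403 against 49 of 672 cells, in *Pi16*-zero cells at 686 against 68.0 CPM, and in immune cells at 29.8 against 18.4 CPM. In uninjured muscle it had 0 CPM in hypothyroid and 2.36 CPM in control members, and at 5 dpi 79.8% of the hypothyroid UMIs came from 1 cell. *C1qtnf3*, an adipokine-like secreted protein, was higher (68.4 against 12.7 CPM, ratio 5.39, 4.06 to 7.25) while the related *C1qtnf1* was lower (1.99 against 32.8 CPM, 0.0607, 0.0257 to 0.123). *Adgra1* (4.57) and *Rgs16* (7.71) were higher as well. *Sln* (7.28), *Npy* (60.4) and *Mmp12* (183) had 48.5%, 70.8% and 53.8% of their UMIs in 1 cell, and *Mmp12* stood at 1330 against 73.6 CPM in immune cells.

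Progenitor-like genes at 14 dpi were lower for 4 of 34 and higher for 0, with a list median of -0.40. These were *Stmn4* (0.235), *Cd248* (0.344), *Il18* (0.450) and *Igfbp6* (0.489, 0.472 to 0.506), the last at 1135 against 2320.5 CPM. Of 10 small proteoglycan genes, *Fmod*, *Omd* and *Prg4* (0.411) were lower. Of 21 injury fibroblast genes *Postn* (2.87, 2.74 to 3.01), *Mmp3* (3.52) and *Thbs1* (2.54) were higher and *Tagln* lower. *Igf2* (4.76) and *Igfbp3* (2.87) were higher among IGF-axis genes, and the cytokines *Lif* (3.01) and *Il11* (2.38) were higher among 18 chemokine and cytokine genes. The lowest ratios named by the rule were those of haemoglobin genes (*Hbb-bs* 0.0147, *Hba-a1* 0.0234, *Hbb-bt* 0.0213, *Hba-a2* 0.0251), followed by *C1qtnf1* and the muscle genes *Tmod4* (0.0685), *Pvalb* (0.104) and *Mb* (0.115). All 4 erythroid and all 7 myofibre genes tested, 4 of 6 endothelial genes (*Kdr*, *Egfl7*, *Fabp4* and *Cdh5*) and 2 of 3 mural genes (*Myh11* and *Rgs5*) were lower and all 4 tested myeloid genes higher in hypothyroid members, and immune cells moved alike for *Hbb-bs*, with 239 against 2237 CPM.

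Of the genes of thyroid hormone transport, activation and receptors, 0 of 6, 0 of 1 and 0 of 10 passed 2-fold on the 3 days, and with so few genes these counts cannot be set apart from the shares over all genes given above. The gene tested at 5 dpi, the corepressor *Ncor1*, had a ratio of 0.506, with 82.2 against 162 CPM. *Thra* stood at 65.4, 65.7 and 81.2 CPM in control and 88.0, 71.0 and 65.9 CPM in hypothyroid members, with a ratio of 1.35 (0.9495 to 1.89) in uninjured muscle and 0.811 (0.691 to 0.951) at 14 dpi. *Thrb* was at most 9.34 CPM. Of thyroid-responsive genes, 0 of 5 passed 2-fold in uninjured muscle, and 1 of 4 was higher and 0 lower at 5 dpi. At 14 dpi 1 of 9 was higher and 1 lower. These counts likewise cannot be set apart from the shares over all genes. *Klf9* stood at 1180, 709 and 845 CPM in control and 1354, 400 and 730 CPM in hypothyroid members and did not reach 2-fold. *Hr* was lower at 14 dpi (0.392, 0.250 to 0.598, from 30 against 90 UMIs). *Cdkn1c*, an inhibitor of the cell cycle, stood at 171, 107 and 269 CPM in control and 274, 469 and 666 CPM in hypothyroid members, and passed 2-fold at 5 dpi (4.39, 3.25 to 6.04) and 14 dpi (2.47, 2.31 to 2.64) but not in uninjured muscle (1.61, 1.32 to 1.95). In *Pi16*-zero cells it stood at 292, 49.4 and 289 CPM against 555, 70.5 and 358 CPM.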

How the data were processed

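Single-cell transcriptomes of TAM were analysed in 6 libraries (1 per diet and day, 3 mice pooled). The deposited values were, per the study's methods and from the values themselves, log2(CPM + 1) per gene and cell, made by the authors with Cell Ranger and Partek on mm39, as named in the submitters' processing notes. UMIs were recovered from them, and 99.934% of 39334018 values above 0 lay within 0.1 of a whole number. The 6 tables listed 12436 genes, and 9062 later columns of unknown condition were used only in the alternative that kept all columns. Library totals ran from 2283954 to 23497545 UMIs and member totals from 486832 to 4729929 UMIs.

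UMIs of members and of *Pi16*-zero cells were summed per library and scaled to CPM. Members and *Pi16*-zero cells were compared on log2(CPM + 1) by limma 3.58.1 (R 4.3.3) with the library as block, over genes with at least 100 UMIs in the 12 pools, with Benjamini-Hochberg adjustment over all genes tested (two-sided). Conditions were compared by the ratio of CPM with an exact conditional binomial interval, and a gene past 2-fold counted where the pool with more held 50 UMIs or more. Levels have exact Poisson intervals, shares Clopper-Pearson intervals, and ratios of shares Katz log intervals. In ratios of conditions and in shares of cells, a count of 0 was bounded by 3 counts per pool. In the main limma fits a count of 0 entered as 0 CPM plus the 1 CPM added to each value. The diets were also compared over the 3 days by limma on the 6 member pools with day as block, over genes with at least 100 UMIs. Python 3.11.15, numpy 2.4.6, scipy 1.17.1, pandas 2.3.3 and matplotlib 3.10.9 were used, and the scripts were tested on simulated data. Doublets were not removed, and the submitters' mapping of cells to conditions was taken as deposited.

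Named were the 10 called genes in each direction with the largest limma difference and a mean of at least 50 CPM, the 8 genes in each direction with ratios farthest from 1 by the interval bound nearest 1 and 100 UMIs or more in one pool, and genes of 29 lists (19 of fibroblast states, matrix, signals and thyroid hormone, 10 of other cell types). The members and the lists were chosen with earlier results of these data known. Of a list of 3 stress neuropeptide genes, *Npy* was tested in members and had no call (difference -0.68). The alternatives tried were all columns, at least 2 *Pi16* UMIs, thinning, other pseudocounts, filters, folds, scaling and summaries, and each library left out. Some genes named by these rules are not reported here.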

Additional observations from a re-analysis of the deposited data

Results flagged for a closer look

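Several genes named above had a hypothyroid to control ratio in members past 2-fold in one direction on one day and past 2-fold in the other direction on another day, and whether the ratios differ between days was not tested. Myofibre transcripts were higher in hypothyroid members in uninjured muscle and lower at 14 dpi. The ratios were 5.92 and 0.283 for *Tpm2*, 4.95 and 0.394 for *Acta1*, 5.22 and 0.351 for *Tcap*, 4.47 and 0.208 for *Ckm* and 4.86 and 0.119 for *Myoz1*. Immune cells of the same libraries held 6434 against 3894 CPM over 7 myofibre genes in uninjured and 3022 against 16164 CPM in 14 dpi muscle. By gene, the uninjured ratio in immune cells was 2.78 for *Tpm2*, 2.09 for *Acta1*, 2.47 for *Tcap* and 1.96 for *Ckm*, and 1.10 (interval 0.570 to 2.10) for *Myoz1*.

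Other genes stood on opposite sides of 1 in uninjured muscle and at 5 dpi. The ratios were 2.01 and 0.266 for *Klf2*, 2.26 and 0.307 for *Zfp36* and 2.14 and 0.252 for *Scd2*. In the opposite order, *Inhba*, which encodes an activin subunit, had ratios of 0.435 and 6.19, and *Tfpi2*, a protease inhibitor, of 0.414 and 8.51, with 2.09 at 14 dpi. *Il1rl1* had a ratio of 0 in uninjured muscle, where 40.5% of the 111 control UMIs came from 1 cell, and of 2.05 at 5 dpi. The cytokine *Lif* had ratios of 0.236 at 5 dpi and 3.01 at 14 dpi, and *Myod1* of 0.0837 in uninjured muscle and 2.91 at 14 dpi. With all columns of the tables kept, the 5 dpi ratio turned for *Klf2* (1.73), *Zfp36* (1.21), *Scd2* (1.78), *Tfpi2* (0.928) and *Lif* (1.24), and after thinning to 2000 UMIs for *Inhba* (0.155), so for these genes the change of direction did not hold in every setting. The 5 dpi comparison crosses the library sets and rests on 46 control cells, and the part of either in these values was not tested.

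Cells that met the rule also stood in the later columns, which entered only the alternative that kept all columns. They numbered 282 of 1152 columns in the control uninjured table, 476 of 2427 in control 5 dpi, 611 of 2801 in control 14 dpi, 7 of 528 in hypothyroid uninjured and 127 of 2154 in hypothyroid 5 dpi. The hypothyroid 14 dpi table had no later columns, with 0 of 0 cells.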

How the results depend on the processing

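The libraries were single, and the values changed with thinning and with the columns of the tables that were kept. The share of FAP-gated cells that were members (control uninjured, 5 and 14 dpi, then hypothyroid in the same order) was 53.5%, 50.2%, 58.4%, 43.4% and 20.6% with all columns (hypothyroid 14 dpi has no more). It was 35.8%, 51.8%, 42.6% and 53.4% with at least 2 *Pi16* UMIs in the 4 libraries other than 5 dpi. After thinning to 2000 UMIs, in 1 draw, it was 26.6% in control uninjured, 53.0% in control 14 dpi, 43.9%, 16.9% and 50% in the hypothyroid libraries, and after thinning to 1000 UMIs it was 17.7%, 39.4%, 20.8% and 34.3% in the libraries other than 5 dpi. Of all cells it was 19.5%, 1.89%, 20.4%, 17.2%, 3.02% and 24.4%. The diet ratio of this share was 0.810 with all columns, 1.65 at 2000 UMIs and 0.882 of all cells in uninjured muscle, 0.411 with all columns, 1.04 at 1000 UMIs and 1.59 of all cells at 5 dpi, and 0.943 at 2000 UMIs, 0.870 at 1000 UMIs and 1.20 of all cells at 14 dpi. The thinned ratios rest on 1 draw, and from the mean shares of 10 draws they were 1.33, 0.725 and 0.919 at 2000 UMIs and 1.22, 0.872 and 1.03 at 1000 UMIs on the 3 days, so that at 1000 UMIs the direction at 5 and 14 dpi depended on the draw.

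Between members and *Pi16*-zero cells, the counts of 129 higher and 125 lower genes became 543 and 953 with all columns, 8 and 0 at 2000 UMIs (4043 genes tested), 219 and 257 with a pseudocount of 5 CPM, and 230 and 204 with a filter of 500 UMIs (4424 genes tested). The mean of the deposited log2 values gave 3370 higher genes, at least 2 *Pi16* UMIs 199 lower genes and a filter of 1 UMI 76 lower genes. Leaving out each library in turn gave 56 to 115 higher and 28 to 152 lower genes, lowest without the control uninjured library. Without both 5 dpi libraries, an alternative chosen after seeing the data, the counts were 127 and 133, of which 96 and 72 were shared. Progenitor-like genes called higher ran from 4 (thinned) to 33 of those tested, from 14 to 20 with a library left out, and interstitial genes called lower from 0 (thinned) to 22, from 6 to 11 with a library left out. Over the 20 named genes, no alternative turned the direction, and 284 of the values kept their call while 47 lost it.

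In the order of the diet comparison uninjured, 5 dpi and 14 dpi, the 261, 257 and 382 genes became 904 and 394 with all columns (uninjured and 5 dpi), 46, 48 and 98 at 2000 UMIs, 668, 696 and 815 with 20 UMIs, 62, 74 and 116 with 200 UMIs and 73, 86 and 139 at 3-fold. For control 5 and 14 dpi and hypothyroid 5 and 14 dpi against uninjured members, 865, 738, 645 and 1391 genes became 245, 137 and 237 with all columns (not hypothyroid 14 dpi), 98, 258, 106 and 285 at 2000 UMIs, 1676, 1296, 1338 and 2185 with 20 UMIs, 274, 300.0, 193 and 541 with 200 UMIs and 295, 268, 221 and 508 at 3-fold. The 8 genes past 2-fold on all 3 days, whose alternatives were chosen after seeing the data, became 1 with all columns (none shared), 2 at 2000 UMIs, 3 with 200 UMIs and 5 at 3-fold. With all columns the diet ratio turned for *Cxcl3* (0.438) and *Apoe* (0.628) in uninjured muscle and for *mt-Nd4l* (0.955), *Tfpi2* (0.928), *Lif* (1.24), *Scd2* (1.78), *Klf2* (1.73), *Zfp36* (1.21) and *Tuba1a* (1.06) at 5 dpi, and at 2000 UMIs for *Inhba* at 5 dpi (0.155). Thinned values of *Cxcl3*, *Il1rl1* and *Myod1* in uninjured muscle and of *Npy* at 14 dpi could not be given. Thinning and filters change how many genes can be tested, and thinning also chose the cells anew. For the other changes the cause was not tested. The fit of diet with day as block, added after seeing the data, called 0 genes, and 6 with a pseudocount of 5 CPM, 4 with 500 UMIs and 111 without both uninjured libraries. Pairs were formed by library and by day, since the labels give no replicate numbers.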
